A study of Mus musculus with 8 samples.

Results

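Among the genes measured in mouse forepaw skin after PACAP or vehicle injection, 10 encode feedback regulators of NF-kappa-B and cytokine signalling, namely Nfkbia, Nfkbiz, Nfkbie, Tnfaip3, Zfp36, Socs3, Ier3, Bcl3, Birc3 and Relb. They were found by their gene name in the array files, which gave 13 probes of 39429 and 10 gene names of 29608. Birc3 had 2 probes, Relb had 3, and each of the others had 1. Every probe was printed on 1 spot per array.

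The RNA came from forepaw skin of male C57BL/6J wild-type (WT) mice and of mice lacking the PACAP receptor PAC1R (Adcyap1r1 -/-, PAC1R KO), aged 9 to 10 weeks and anaesthetised. Skin of each genotype was taken at 30 and at 60 min. The injection was intradermal, 5 µL of saline with 0.1% bovine serum albumin, either alone (vehicle) or with 1e-07 mol/L PACAP. This gave 8 RNA samples in 4 comparisons, WT 30 min, WT 60 min, KO 30 min and KO 60 min. The PACAP and the vehicle sample of a comparison were hybridised together on 2 arrays with swapped dyes, which count as 1 replicate, so no comparison has a replicate between animals. The study used 6 mice of each genotype, and which mice entered a sample, or whether RNA was pooled, is not given in the sources used here. The WT arrays shared 1 slide and the KO arrays shared the other of the 2 slides, and the slide therefore cannot be told apart from the genotype. No uninjected skin was measured, and the time points are different RNA samples.

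NF-kappa-B is a family of dimeric transcription factors that inhibitor proteins hold in the cytoplasm until cytokines, microbial products or injury release them. Many of the genes it then switches on encode its own inhibitors, so that the response is cut short. In skin this loop runs in keratinocytes, endothelium and immune cells, and cytokine signalling through gp130 and STAT3 has a comparable brake in SOCS3. PACAP is a neuropeptide whose receptor PAC1R raises cyclic AMP.

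The stretches before the transcription start show which recognition letters these genes carry. Promoter windows of 300 bases from RefSeq (GRCm38.p6, 250 bases before a start and 50 after) were available for 8 of the 10 genes, with 2 windows for Tnfaip3. The letters of an NF-kappa-B site were in 5 of these 9 windows, 1 each of Tnfaip3, Nfkbia, Nfkbie, Ier3 and Bcl3, whereas 4.51% of all 32851 windows held them. An AP-1 site (TGANTCA) was in the windows of Tnfaip3 and Nfkbie and in 7.81% of all windows. A STAT site (TTCNNNGAA) was in those of Socs3 and Zfp36 and in 8.3% of all windows, and a serum response element in that of Zfp36 and in 1.63% of all. A cyclic AMP response element (TGACGTCA) was in 0 of the 9 windows and in 1.79% of all. Both strands were searched, a match is a description of letters and not of binding, and Nfkbiz and Relb were not in the table. The 160 bases before the start are shown for the 6 genes with a match there, 5′ to 3′ on the gene's strand, with the matched letters in capitals. Tnfaip3 and Socs3 are first because their levels differed most steadily between the time points:
Tnfaip3, chr10:19015411-19015570, minus strand: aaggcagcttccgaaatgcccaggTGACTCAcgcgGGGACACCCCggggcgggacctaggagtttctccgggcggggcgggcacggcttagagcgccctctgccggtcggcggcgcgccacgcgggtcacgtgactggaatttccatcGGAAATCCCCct
Socs3, chr11:117969367-117969526, minus strand: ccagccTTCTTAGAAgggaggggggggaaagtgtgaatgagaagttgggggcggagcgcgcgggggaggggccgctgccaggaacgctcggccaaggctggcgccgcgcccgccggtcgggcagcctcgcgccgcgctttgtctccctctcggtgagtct
Nfkbia, chr12:55492648-55492807, minus strand: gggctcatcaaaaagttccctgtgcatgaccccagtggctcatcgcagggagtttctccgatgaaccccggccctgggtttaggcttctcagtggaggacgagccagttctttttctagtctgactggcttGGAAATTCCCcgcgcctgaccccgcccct
Nfkbie, chr17:45555540-45555699, plus strand: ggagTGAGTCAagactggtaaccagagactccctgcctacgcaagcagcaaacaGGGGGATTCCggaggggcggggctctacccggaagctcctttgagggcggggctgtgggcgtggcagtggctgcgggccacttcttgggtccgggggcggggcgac
Ier3, chr17:35821553-35821712, plus strand: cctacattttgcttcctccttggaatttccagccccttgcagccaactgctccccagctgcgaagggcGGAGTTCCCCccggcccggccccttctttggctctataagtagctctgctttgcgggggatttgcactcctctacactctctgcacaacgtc
Zfp36, chr7:28379229-28379388, minus strand: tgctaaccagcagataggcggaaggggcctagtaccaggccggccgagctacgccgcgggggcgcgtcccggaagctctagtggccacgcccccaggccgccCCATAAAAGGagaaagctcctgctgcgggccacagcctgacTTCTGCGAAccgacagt
In Tnfaip3 the capitals mark an AP-1 site from base -136, an NF-kappa-B site from base -125 and another on the opposite strand from base -12, counted from the start. The NF-kappa-B letters began at base -29 in Nfkbia, at -106 in Nfkbie and at -92 in Ier3, and the AP-1 site of Nfkbie at -156. In Socs3 the STAT letters began at base -154, and Zfp36 held the serum response element from base -58 and the STAT letters from base -17. The NF-kappa-B letters of Bcl3 began at base 3 after the start and lie outside the stretch shown. The other Tnfaip3 window and that of Birc3 held none of the motifs.

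The 6 keratinocyte markers (Krt5, Krt14, Krt1, Krt10, Krt9 and Lor) were well above background in both channels of every array, as were 5 of 6 eccrine gland markers. All 8 skeletal muscle and all 6 hair shaft markers were well above background as well. Adcyap1r1, the targeted gene, had log2 levels of 8.28 (WT 30 min vehicle), 8.27 (WT 30 min PACAP), 8.67 (WT 60 min vehicle), 8.76 (WT 60 min PACAP), 7.98 (KO 30 min vehicle), 7.91 (KO 30 min PACAP), 8.56 (KO 60 min vehicle) and 8.42 (KO 60 min PACAP). KO samples were lower than WT samples of the same time and injection by 0.11 to 0.36, and the genotype ranges overlapped. Whether the probe lies in the deleted part is not given in the sources used here, so it does not check the labels. The vehicle levels of Adcyap1r1 differed by -0.21 (KO minus WT, limma, SE 0.27, adjusted p = 0.96, 2 vehicle samples of each genotype).

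None of the 10 feedback genes passed the counting rule between PACAP and vehicle in any comparison. To be counted, a probe had to reach a 2.0-fold (or 0.5-fold) mean and to show, on each of its arrays, that direction and a Feature Extraction p below 0.01. In WT at 30 min 0 of 13 member probes were counted as higher and 0 as lower, against 0.254% and 0.0964% of all 39429 probes. At 60 min in WT the count was also 0 in each direction, against 0.583% higher and 0.109% lower. In KO at 30 min it was 0 and 0, against 0.601% and 0.107%, and in KO at 60 min 0 and 0, against 0.142% and 0.15%. With shares this low in all probes, 0 of 13 is near the background. At 1.5-fold with the same p and direction rule, 1 gene was counted as higher in WT at 30 min (Tnfaip3; 1.13% of all probes) and 1 in KO at 60 min (Bcl3; 0.342% of all). No feedback gene was counted as higher at 1.5-fold in WT at 60 min (0.748% of all) or in KO at 30 min (1.54%), and none as lower in any comparison (0.261%, 0.165%, 1.17% and 0.228% of all probes in WT 30 min, WT 60 min, KO 30 min and KO 60 min).

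**Figure D1:**
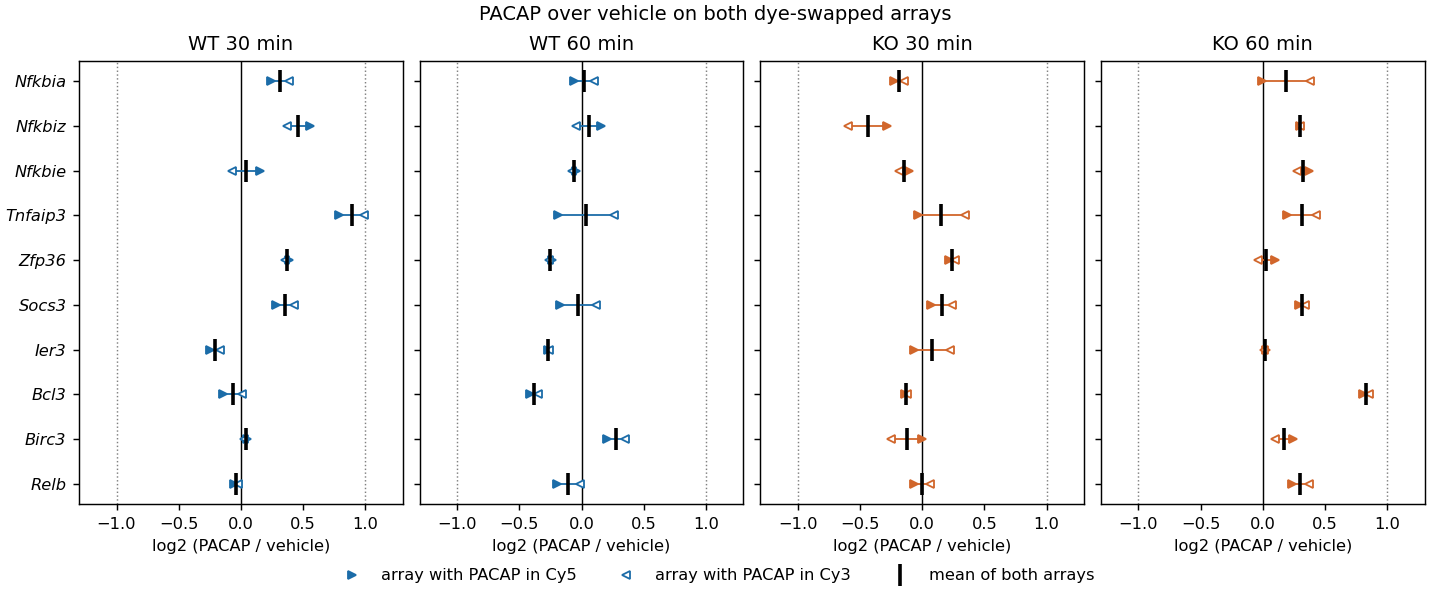
Log2 ratio of PACAP over vehicle (horizontal axis) for the brightest probe of each feedback gene (rows) in the 4 comparisons (panels), with a triangle for each dye-swapped array, a line between the arrays and a black tick for their mean. Dotted lines mark 2.0-fold and 0.5-fold, which no mean crosses, and the ticks farthest to the right are Tnfaip3 in WT at 30 min (0.89) and Bcl3 in KO at 60 min (0.83).

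Tnfaip3 encodes A20, a ubiquitin-editing enzyme that shuts off signalling to NF-kappa-B, and its probe lies at chr10:18720776-18720835 (mm9, minus strand). In WT skin at 30 min it was 1.73-fold higher after PACAP on the array with PACAP in Cy5 and 1.99-fold higher on the array with PACAP in Cy3, a mean of 1.85-fold (0.89 ± 0.14 on the log2 scale, SD of 2 arrays of the same RNA). The Feature Extraction p was 0.000297 on one array and 9.40e-06 on the other. That p describes the spot on 1 array and not the animals. In WT at 60 min (1.02-fold) and in KO at 30 min (1.11-fold) the arrays lay on opposite sides of 1, and in KO at 60 min (1.24-fold) both lay above 1. In the WT 30 min comparison all 8 skeletal muscle markers were also higher after PACAP, with a median log2 ratio of 0.90, and their part in the Tnfaip3 ratio was not tested. In whole skin, fewer cells of a type and less RNA per cell cannot be told apart.

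Bcl3 encodes an atypical inhibitor that works in the nucleus with the p50 and p52 subunits, and its probe lies at chr7:20393826-20393885 (mm9, minus strand). In KO skin at 60 min it was 1.75-fold higher after PACAP on one array and 1.80-fold on the other, a mean of 1.78-fold (0.83 ± 0.03 on the log2 scale), with Feature Extraction p of 0.000209 and 0.000100. In the other comparisons its mean was 0.955, 0.767 and 0.914 in WT 30 min, WT 60 min and KO 30 min. Both arrays lay below 1 in WT at 60 min and in KO at 30 min. The KO minus WT difference of its log2 ratio was 0.57 (SE 0.35), which did not pass limma across all probes (adjusted p = 0.84, 95% interval -0.27 to 1.42). That difference was 0.10 without KO 60 min and 1.05 without KO 30 min. The neutrophil markers S100a8 and S100a9 passed the counting rule in the same KO 60 min comparison and, with Retnlg, in KO 30 min. In KO 60 min 7 of the 11 neutrophil markers lay above 0 with a median log2 ratio of 0.14 (range -0.25 to 2.19). In WT 30 min, WT 60 min and KO 30 min, where Bcl3 was below 1-fold, 6, 3 and 10 of the 11 lay above 0, with medians of 0.06, -0.17 and 0.60. The summed level of the 11, in which the brightest markers weigh most, was higher after PACAP by 0.61, 0.49, 1.35 and 1.53 on the log2 scale in WT 30 min, WT 60 min, KO 30 min and KO 60 min. The part of these markers in the Bcl3 ratio was not tested.

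The inhibitors that retain NF-kappa-B in the cytoplasm had small ratios. Nfkbia, which encodes I-kappa-B-alpha, had a mean of 1.24-fold in WT at 30 min, with 1.18-fold and 1.31-fold on its arrays. Its means in WT 60 min, KO 30 min and KO 60 min were 1.01-fold, 0.878-fold and 1.14-fold. Nfkbie, which encodes I-kappa-B-epsilon, had its highest mean in KO at 60 min (1.25-fold, from array values of 1.29 and 1.21), while it lay between 0.905-fold and 1.03-fold in the others. Nfkbiz encodes I-kappa-B-zeta, a nuclear cofactor that some secondary response genes need. It was higher after PACAP in WT at 30 min (1.47-fold and 1.29-fold on the arrays, mean 1.38-fold) and lower in KO at 30 min (0.822-fold and 0.662-fold, mean 0.738-fold). The KO minus WT difference over both times was -0.33 (limma, SE 0.31, adjusted p = 0.84), and it was 0.04 without KO 30 min and -0.70 without KO 60 min. With normexp background correction and loess, the 30 min means of Nfkbiz were nearer to 1, at 1.26-fold in WT and 0.861-fold in KO. The KO minus WT difference was then -0.24. Markers of other cells differed in the same comparisons. At 30 min the median log2 ratio of the 6 keratinocyte markers was 0.10 in WT and -0.79 in KO, with 4 and 0 of 6 above 0, and Krt1 and Krt10 passed the counting rule as lower after PACAP in KO. For the 8 skeletal muscle markers the medians were 0.90 and -1.04, with 8 and 1 of 8 above 0, and Acta1, Actn3, Myh1 and Myh4 passed the rule as lower after PACAP in KO, as Myh1, Myh4 and Ttn did as higher in WT. Their part in the Nfkbiz ratios was not tested.

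Zfp36 encodes tristetraprolin, which speeds the decay of cytokine mRNAs with AU-rich elements. At 30 min its mean was 1.29-fold in WT mice and 1.18-fold in KO mice, with both arrays above 1 in each. At 60 min it was 0.841-fold in WT, with both arrays below 1, and 1.02-fold in KO. The difference of the ratios between the times was -0.42 on the log2 scale (60 minus 30 min, limma, SE 0.22), with an unadjusted p of 0.109 and an adjusted p of 1. Socs3, the inhibitor of gp130 and JAK signalling, with a probe at chr11:117827480-117827539 (mm9, minus strand), had means of 1.28-fold, 0.98-fold, 1.12-fold and 1.24-fold in WT 30 min, WT 60 min, KO 30 min and KO 60 min. Both arrays were above 1 in each of these except WT 60 min. Ier3, an immediate early gene of the stress response, had means of 0.866-fold and 0.83-fold in WT at 30 and 60 min, and of 1.05-fold and 1.01-fold in KO.

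Birc3 encodes cIAP2, a ubiquitin ligase of the TNF receptor complex. Its brighter probe had means between 0.917-fold (KO 30 min) and 1.21-fold (WT 60 min). Its other probe was well above background on only 1 of the 2 arrays for each sample, the one on which that sample carried Cy5. With that probe the array with PACAP in Cy5 gave a higher ratio than the array with PACAP in Cy3 in all 4 comparisons, for example 2.12-fold against 0.426-fold in KO at 60 min, and its means carry no reading. Relb encodes the subunit of the alternative NF-kappa-B pathway. The brightest of its probes had a mean of 1.23-fold in KO at 60 min and between 0.929-fold and 0.999-fold in the others. Its other probes gave 1.13-fold and 0.901-fold in KO at 60 min, so the 3 Relb probes lay on both sides of 1 there.

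Taking the brightest probe of each gene, KO at 60 min was the comparison in which the genes lay to one side. All 10 had a mean above 1, from 1.01-fold for Ier3 to 1.78-fold for Bcl3, with a median log2 ratio of 0.30 against 0.00 over all probes tested, of which 51.2% lay above 0. In WT at 30 min 7 of 10 lay above 0, with a median of 0.18 against -0.05 over all probes and 42.2% of these above 0. In WT at 60 min 4 of 10 lay above 0 (median -0.04, all probes -0.01 and 46.9% above 0), and in KO at 30 min 4 of 10 (median -0.06, all probes -0.01 and 48.2% above 0). Both arrays of a comparison had the same direction for 8, 6, 7 and 8 of the 10 genes in WT 30 min, WT 60 min, KO 30 min and KO 60 min. With normexp background correction and loess, 9 of the 10 lay above 0 in KO at 60 min, with a median of 0.17, and over all 13 probes the medians were 0.19 in KO at 60 min and 0.04 in WT at 30 min. The genes are not replicates of a condition, and these medians are given with no test. Beside them in KO at 60 min, 5 of 6 keratinocyte markers (median 0.22) and 7 of 11 neutrophil markers (median 0.14) also lay above 0, and 0 of 6 hair shaft markers did (median -0.51). Their part in the shift of the feedback genes was not tested.

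Across the 4 comparisons no feedback gene had a PACAP effect that passed limma. The fit of the mean ratio over the comparisons called 0 of 30371 probes (0%), with 678 probes and 0 member probes at an unadjusted p under 0.05. Tnfaip3 had the largest member value in this fit, 0.35 on the log2 scale (SE 0.15, unadjusted p = 0.0606, adjusted p = 1, 95% interval -0.02 to 0.72), and it was above 0 in 4 of 4 comparisons. Without WT 30 min the value was 0.17. Among the brightest probes Socs3 was next with 0.20 (SE 0.10, unadjusted p = 0.0902, adjusted p = 1) and was above 0 in 3 of 4. The fit of KO minus WT called 0 probes (0%), with 973 probes at an unadjusted p under 0.05 and the lowest adjusted p among all probes at 0.84. The fit of 60 minus 30 min also called 0 (0%), with 483 at an unadjusted p under 0.05, and no member probe was under 0.05 in either fit. With 2 values on each side the intervals were wide, and for Socs3 that of KO minus WT ran from -0.47 to 0.62.

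The levels of Tnfaip3 and Socs3 differed more between the sampling times than between PACAP and vehicle. These are log2 normalised intensities, averaged over both arrays of a sample. Tnfaip3 stood at 8.26 in WT 30 min vehicle, 9.03 in WT 30 min PACAP, 8.90 in KO 30 min vehicle and 9.07 in KO 30 min PACAP. At 60 min it stood at 9.85 in WT vehicle, 9.92 in WT PACAP, 10.12 in KO vehicle and 10.47 in KO PACAP. Every 60 min sample lay above every 30 min sample, and the lowest was the WT 30 min vehicle sample. Socs3 had levels of 10.60 and 10.98 in the WT vehicle and PACAP samples and 10.63 and 10.78 in the KO vehicle and PACAP samples at 30 min. At 60 min the corresponding levels were 11.55, 11.53, 12.00 and 12.36. Its 60 min samples also lay above all 30 min samples, with the KO samples highest. The SD between the arrays of a sample was at most 0.15 for Tnfaip3 and 0.08 for Socs3.

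**Figure D2:**
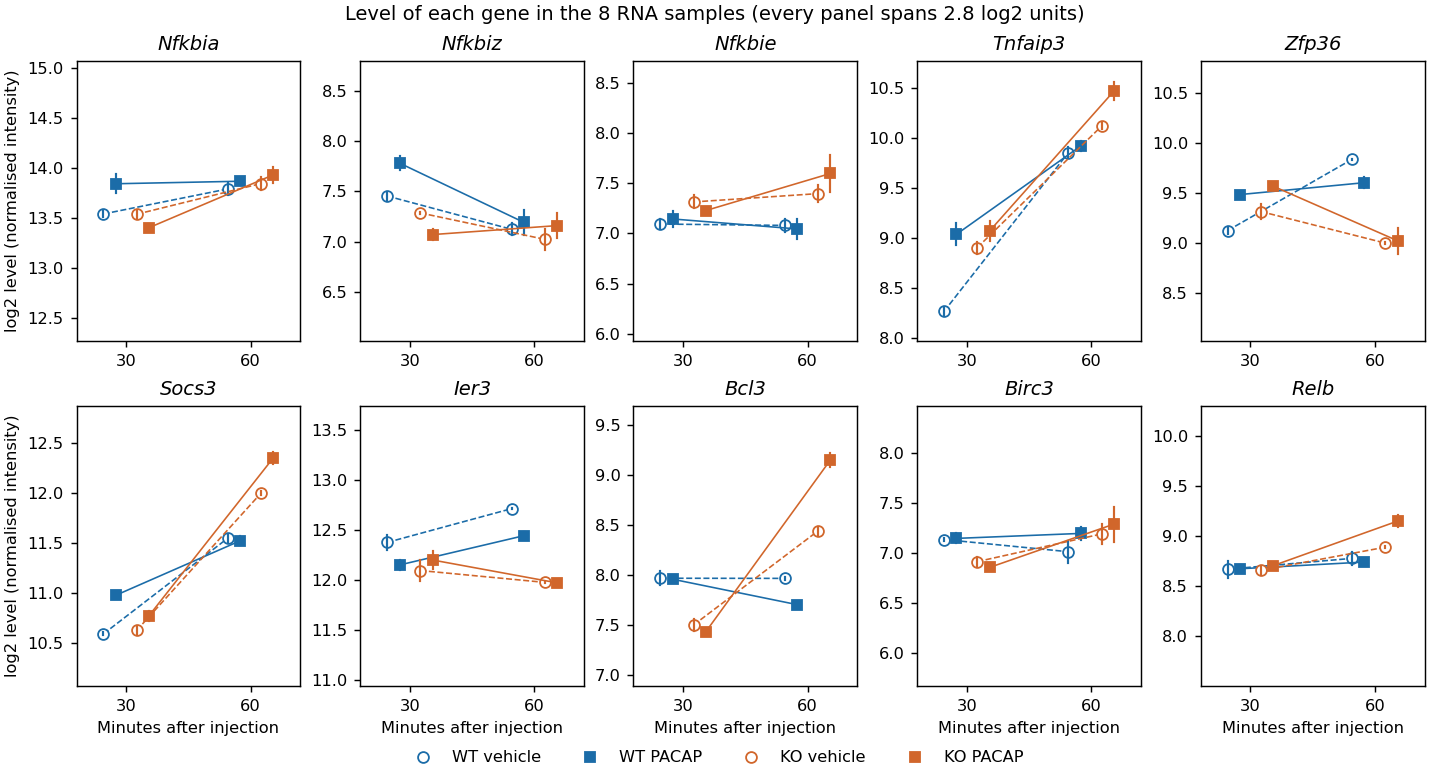
Log2 level (vertical axis, normalised intensity, 2.8 log2 units in every panel) of the brightest probe of each feedback gene in the 8 RNA samples against the time after injection in minutes, with WT in blue, KO in orange, vehicle as open circles and PACAP as filled squares, set slightly apart for clarity. Vertical bars span the 2 arrays of a sample and lines join samples of the same genotype and injection, which are different RNA samples. Tnfaip3 runs from 8.26 to 10.47 and Socs3 from 10.60 to 12.36, with every 60 min sample above every 30 min sample.

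As differences between the times, Tnfaip3 was higher at 60 min by 1.59 (WT vehicle), 0.88 (WT PACAP), 1.21 (KO vehicle) and 1.40 (KO PACAP), the smallest of these being 1.84-fold. Ranked by the smallest of its 4 differences, it was number 12 of 37771 probes. Socs3 was higher by 0.96, 0.54, 1.37 and 1.58 in the same order (1.46-fold for the smallest), and was number 120. The other members ranked from 4105 (Relb) to 35133 (Nfkbiz), and this ranking was not planned. Within a genotype, the vehicle and PACAP differences come from the same arrays and are not independent. In the vehicle samples alone, the limma estimate was 1.40 for Tnfaip3 (SE 0.25, 95% interval 0.69 to 2.12, unadjusted p = 0.00586, adjusted p = 0.194) and 1.16 for Socs3 (SE 0.17, 95% interval 0.68 to 1.64, unadjusted p = 0.00275, adjusted p = 0.194). Neither passed, and the fit called 0 of 37553 probes (0%), although 6293 probes had an unadjusted p under 0.05, 5 of the 13 member probes among them. With the PACAP samples in place of the vehicle samples, an alternative chosen after seeing the data, the estimates were 1.14 for Tnfaip3 and 1.06 for Socs3 (limma, adjusted p = 0.824 and 0.834). Leaving out 1 vehicle sample in turn gave 1.08 to 1.72 for Tnfaip3 and 0.94 to 1.39 for Socs3.

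**Figure D3:**
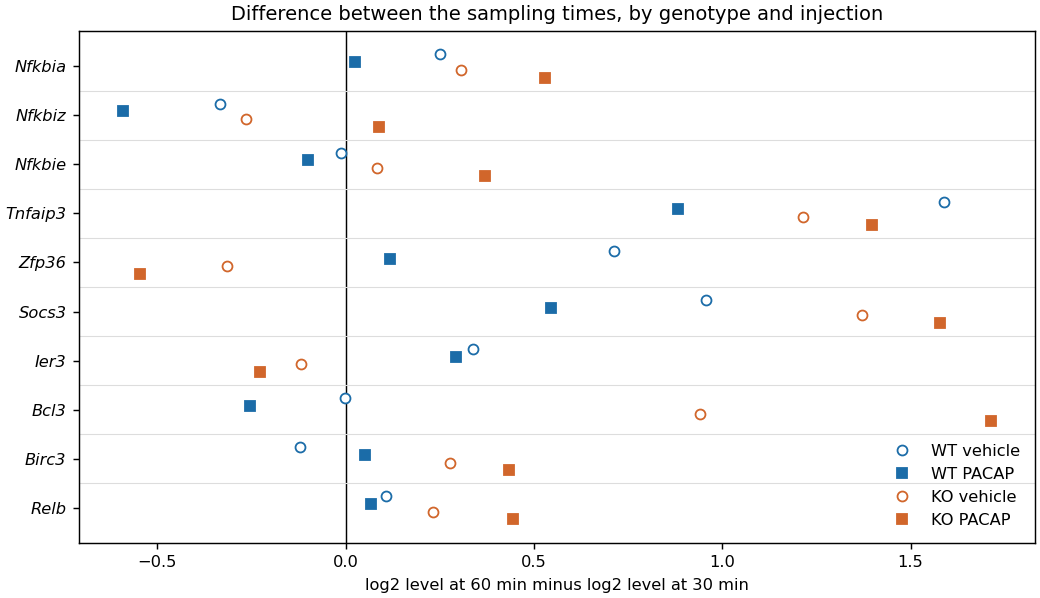
Difference in log2 level, 60 minus 30 min (horizontal axis), of each feedback gene (rows) in the vehicle samples (open circles) and PACAP samples (filled squares) of WT (blue) and KO (orange). All 4 points lie between 0.88 and 1.59 for Tnfaip3 and between 0.54 and 1.58 for Socs3, whereas those of Zfp36 and Ier3 lie above 0 in WT and below 0 in KO.

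The other feedback genes showed smaller or mixed differences between the times. Relb was higher at 60 min by 0.07 to 0.44 and its 8 sample means did not overlap between the times. The nearest were 8.70 (KO 30 min PACAP) and 8.74 (WT 60 min PACAP). Its single arrays did overlap, with 8.75 on an array of WT 30 min vehicle and 8.71 on an array of WT 60 min vehicle. Nfkbia was higher by 0.03 to 0.53 with overlap. Thus 3 of the 10 genes, Tnfaip3, Socs3 and Relb, had every 60 min level above every 30 min level, against 11% of all 37771 probes, and 0 had every 60 min level below, against 10.8%. Among the other 2 Relb probes, 1 separated the times in this way. Nfkbiz was lower at 60 min in 3 of 4 differences, with differences of -0.33 (WT) and -0.26 (KO) in the vehicle samples (limma estimate -0.30, SE 0.09, unadjusted p = 0.0286, adjusted p = 0.247). Zfp36 went apart by genotype, with 0.71 (vehicle) and 0.12 (PACAP) in WT and -0.32 and -0.55 in KO. Ier3 had the same pattern with 0.34 and 0.29 in WT and -0.12 and -0.23 in KO. The genotype difference of these time differences was not tested.

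Bcl3 differed between the times in KO samples. Its level was 7.97, 7.96, 7.97 and 7.71 in the WT 30 min vehicle, WT 30 min PACAP, WT 60 min vehicle and WT 60 min PACAP samples. In KO it was 7.50 and 7.44 at 30 min and 8.44 and 9.15 at 60 min, in the vehicle and PACAP samples. The KO 60 min samples were the highest of the 8 and the KO 30 min samples the lowest. KO minus WT was -0.47 at 30 min and 0.47 at 60 min in the vehicle samples, and -0.52 and 1.45 in the PACAP samples. In the vehicle samples over both times, limma called 0 of 37553 probes between KO and WT (0%), with 2424 probes at an unadjusted p under 0.05. The members under 0.05 there were Nfkbie, higher in KO by 0.27 (SE 0.06, adjusted p = 0.761), and Ier3, with a KO minus WT difference of -0.51 (SE 0.14, adjusted p = 0.761).

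The cartilage and bone markers also separated the times. Their summed log2 level (6 genes) ran from 10.0 to 10.2 at 30 min and from 10.4 to 10.6 at 60 min. Of the 6, 3 (Col2a1, Acan and Ibsp) had every 60 min level above every 30 min level, against 11% of all 37771 probes. In both channels of every array 4 of the 6 were well above background. The sums of the other lists overlapped between the times. Single markers in those lists separated the times too, Mpo and Apoa1 as higher at 60 min and Foxa1 and Fcgr1 as lower. For the 6 hair shaft markers the sum ran from 11.4 to 12.5 and from 11.7 to 14.1. The 11 neutrophil markers ran from 13.6 to 15.0 and from 13.9 to 15.4, with 7 of 11 well above background throughout. Keratinocyte markers ran from 17.6 to 18.4 and from 17.9 to 18.2, and their median difference, 60 minus 30 min, was -0.36 in the vehicle samples and 0.21 in the PACAP samples. No marker of these lists was below background in every channel. The part of these tissues in the Tnfaip3 and Socs3 levels was not tested.

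Around the feedback genes, the target genes that passed the counting rule were mostly cytokine genes, and mostly at 30 min. Of 91 further genes of the pathway on the array, in 7 lists, those that passed the counting rule were all in the list of 17 target genes. They were 6 in WT 30 min, 0 in WT 60 min, 3 in KO 30 min and 1 in KO 60 min, each higher after PACAP. In the same order, 0.254%, 0.583%, 0.601% and 0.142% of all 39429 probes were counted as higher. The lists were chosen with earlier results of these data known. Il6, the interleukin that signals through gp130, was 4.47-fold higher in WT (4.22-fold and 4.73-fold on the arrays) and 3.80-fold higher in KO (3.39-fold and 4.27-fold) at 30 min. Il1b, the inflammasome-processed interleukin, was 2.10-fold higher in WT and 4.76-fold higher in KO. The neutrophil chemokine gene Cxcl2 had ratios of 3.91-fold in WT (6.49-fold and 2.36-fold) and 3.32-fold in KO, with the WT vehicle sample well above background on 1 of its 2 arrays. In WT at 30 min the prostaglandin synthase gene Ptgs2 (2.72-fold) and the chemokine genes Cxcl1 (2.61-fold) and Ccl2 (2.04-fold) also passed. Their ratios in KO at 30 min were 1.37-fold, 1.95-fold and 1.57-fold. Csf3, the granulocyte growth factor, passed in KO at 60 min (3.24-fold), where its vehicle sample was well above background on 1 of 2 arrays. With normexp background correction and loess, several of these sizes were smaller by over 1.5 times. The ratios of Cxcl2 at 30 min were then 1.35-fold (WT) and 1.76-fold (KO), that of Csf3 in KO at 60 min was 1.32-fold and that of Il6 in WT at 30 min was 2.61-fold. Il1b at 30 min was 1.75-fold (WT) and 3.67-fold (KO), Il6 in KO at 30 min 2.64-fold and Cxcl1 in WT at 30 min 2.54-fold. Sele, an endothelial adhesion gene named here after its values were seen, had the highest ratio of the 91 genes in WT at 60 min (1.72-fold) and did not pass the rule, and there it was well above background on 1 of 2 arrays for each sample and 1.11-fold with normexp and loess. In WT at 60 min the 7 genes that passed elsewhere lay between 0.574-fold (Il1b) and 1.27-fold (Ptgs2).

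**Figure D4:**
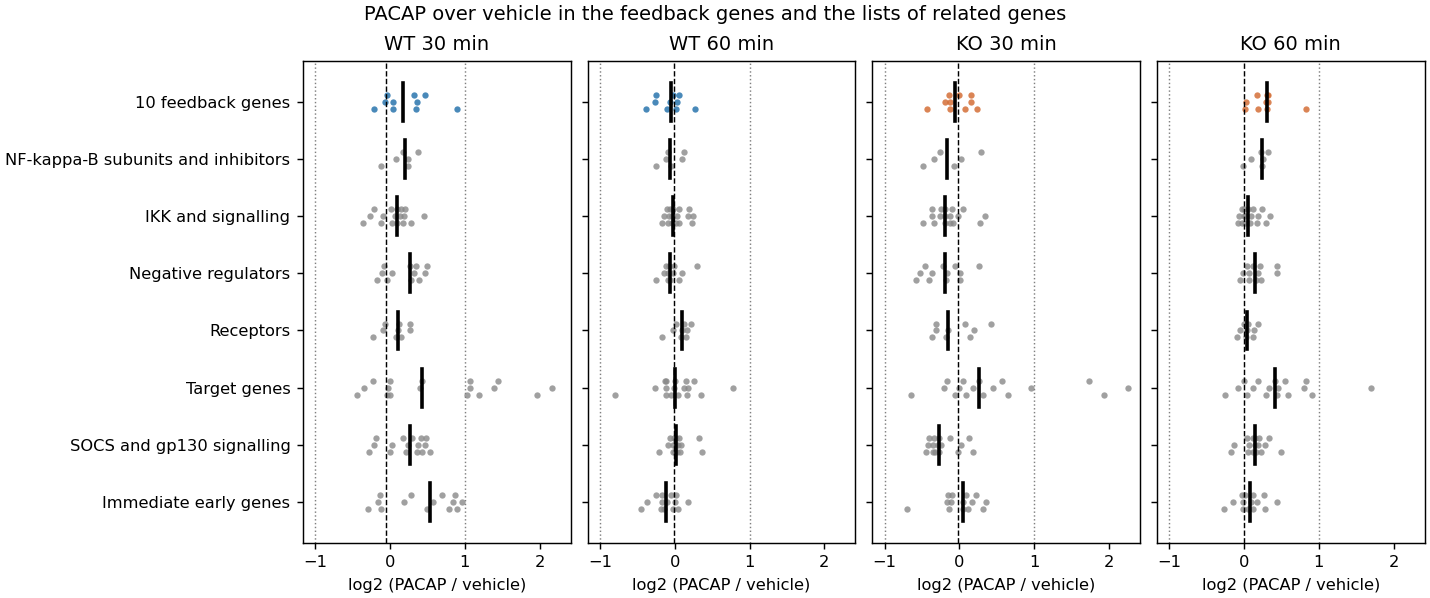
Log2 ratio of PACAP over vehicle (horizontal axis) for the 10 feedback genes (coloured) and the 7 lists of related genes (grey), one point per gene, in the 4 comparisons. Black ticks are list medians, the dashed line is the median of all probes tested and dotted lines mark 2.0-fold and 0.5-fold. The target genes reach 2.16 in WT at 30 min and 2.25 in KO at 30 min, whereas no feedback gene passes 0.89.

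The lists of the machinery itself had no gene past the rule. The 6 other NF-kappa-B subunits and inhibitors had median log2 ratios of 0.20, -0.07, -0.17 and 0.24 in WT 30 min, WT 60 min, KO 30 min and KO 60 min, and the 17 genes of IKK and adaptor signalling 0.09, -0.02, -0.19 and 0.05. For the 12 other negative regulators the medians were 0.27, -0.06, -0.20 and 0.14, and for the 9 receptors 0.10, 0.09, -0.15 and 0.04. The 16 genes of SOCS and gp130 signalling had 0.27, 0.02, -0.28 and 0.15. The 14 immediate early genes had 0.54, -0.12, 0.04 and 0.07, with 10 of 14 above 0 in WT at 30 min. In WT at 30 min all 7 list medians were above the all-probe median of -0.05, and in KO at 30 min 5 of 7 were below that of -0.01. In KO at 60 min all 7 were above the all-probe median of 0.00. Of the 91 genes, 64, 41, 35 and 70 lay above 0 in WT 30 min, WT 60 min, KO 30 min and KO 60 min. In WT at 30 min the skeletal muscle and keratinocyte medians given beside Nfkbiz were also above the all-probe median. In KO at 30 min both were below it. In KO at 60 min the keratinocyte (0.22) and neutrophil (0.14) medians were above it. Those of the eccrine gland, T cell, endothelium, hair shaft and cartilage and bone markers were below it there. The part of these markers in the list medians was not tested. The comparisons do not share samples.

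Between the times, some of the target and immediate early genes separated their samples as Tnfaip3 and Socs3 did, and most did not. Every 60 min level lay above every 30 min level for 5 of 17 target genes and 5 of 14 immediate early genes, among them Il6, Ccl2 and Cxcl1. Over the 91 genes this held for 13, and the opposite for 3, where all probes gave 11% and 10.8%. No test was made of these counts. Il6 was higher at 60 min by 2.21 and 0.97 in WT and by 2.54 and 1.98 in KO, in the vehicle and PACAP samples. Ccl2 was higher by 2.35, 1.23, 1.09 and 0.89 in WT vehicle, WT PACAP, KO vehicle and KO PACAP. Nfkbid and Atf3, named here after their values were seen, were higher by 0.73 to 1.16 and by 0.82 to 2.02. Nfkbid encodes a further nuclear inhibitor of the family and was the only one of the 6 subunits and inhibitors to separate the times.

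Over the 8 RNA samples, the mean of the 10 centred levels was lowest in KO 30 min vehicle (-0.23) and highest in KO 60 min PACAP (0.36). Among 23088 gene names, Socs3 followed this mean most closely (Pearson r = 0.97, 8 samples), which it helped to make. The gene names next in line were LF193170 (r = 0.97), Gm10091 (0.97), Gfpt2 (0.97) and Arc (0.96). LF193170 and Gm10091 ranged over 0.18 and 0.13 on the log2 scale, against 1.22 for Gfpt2, an enzyme of hexosamine synthesis, and 1.34 for Arc, an immediate early gene. Tnfaip3 (r = 0.92), Nfkbia (0.89), Relb (0.87) and Bcl3 (0.83) followed the mean too, whereas Ier3 (-0.12), Zfp36 (-0.18) and Nfkbiz (-0.31) did not. Each of these members is part of the mean. Those with a wide range, Tnfaip3 (2.20), Socs3 (1.76) and Bcl3 (1.71), weigh most in it. The samples share slides and hybridisations in pairs, so these correlations are a description.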

How the data were processed

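The authors labelled RNA of each PACAP and vehicle pair with Cy3 and Cy5, hybridised it to Agilent whole-genome mouse arrays and read the scans with Feature Extraction (12.0.3.1 per the file headers, 11.0.1.1 per the labels). The deposited log10 ratios and the p-value of each spot come from signals that the software had background-corrected and LOWESS-normalised. The deposited intensity values are processed and mean signals per channel, and the authors' series matrix repeats the log10 ratios. The probe coordinates in the deposited files use mm9.

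Control and outlier spots were left out, and ratios, expressed as PACAP over vehicle, were averaged over the dye swap. Levels used normexp (offset 50), loess and Aquantile in limma 3.58.1 (R 4.3.3), and the filter was a signal well above background (ratios: 1 channel on every array, 30373 probes; vehicle levels: 1 sample, 37555 probes). A few probes with a missing value were not fitted. limma used lmFit, eBayes and Benjamini-Hochberg adjustment over all probes tested (adjusted p below 0.05). The plan was to name the 10 members, pathway genes passing the counting rule (at most 8 per comparison), Adcyap1r1 and the 5 gene names most like the members' mean level. Sele, Nfkbid and Atf3 were added after their values were seen, and single markers were named from the marker lists. The members and lists were chosen with earlier results of these data known. Bcl2a1a and Trac matched no gene name. The steps were tested on simulated data. Alternatives were the thresholds, normalisation, centring, outliers, filters, covariates and single arrays or samples left out. Promoter sequences are from RefSeq (GRCm38.p6). The number of RNA samples, 8 in all with no replicate between animals, limits the precision. Python 3.11.15, pandas 2.3.3 and numpy 2.4.6 were used.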

Additional observations from a re-analysis of the deposited data

How the results depend on the processing

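The counts of feedback genes, 0 in each comparison, were 0 under every alternative tried except 1.5-fold, which gave 1 in WT at 30 min (Tnfaip3) and 1 in KO at 60 min (Bcl3). Over all probes, counts in WT 30 min, WT 60 min, KO 30 min and KO 60 min were 138, 273, 279 and 115. They were 549, 360, 1069 and 225 at 1.5-fold, 324, 418, 521 and 223 by fold alone, 57, 170, 164 and 72 with normexp and loess (fold and direction alone), and 612 to 870, 679 to 837, 881 to 1197 and 446 to 701 with 1 array left out. The members' median log2 ratio was 0.037 over all 13 probes in WT at 30 min, and 0.19 to 0.20 on single arrays. In WT at 60 min single arrays gave -0.18 to -0.031. In KO at 30 min it was -0.00078 over all probes, -0.0047 with normexp and loess, and -0.068 to -0.028 on single arrays. In KO at 60 min it was 0.19 over all probes, 0.17 with normexp and loess, and 0.24 to 0.32 on single arrays. In all, 160 member ratios were recomputed, with normexp and loess, median centring, the series matrix's ratios or outlier spots kept. Of these, 12 moved by more than the SD of their arrays and 3 turned sign, none of them above 0.04 in size. All of these moves and sign turns came with normexp and loess, so their share is higher in that setting. The other settings left the member ratios nearly the same. Single arrays are not among the 160, and they turned the sign of larger ratios. An example is the 0.19 for Nfkbia in KO at 60 min, which was -0.0090 with PACAP in Cy5.

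No member was called in any of 559 recomputed limma values, and the lowest adjusted p was 0.114. Over all probes, limma called 0 to 1 for the shared PACAP effect with 1 comparison left out (1 without WT 30 min). For KO minus WT it called 0 to 170 (170 without WT 30 min, 83 without WT 60 min), and 17 with time as a covariate. For 60 minus 30 min it called 0 to 11 (11 without KO 60 min), and 2 with genotype as a covariate. A comparison or sample left alone on its side was taken to vary like the others. Over its 13 settings the time difference of Tnfaip3 ranged from 1.08 to 1.72 and that of Socs3 from 0.94 to 1.39, with adjusted p from 0.124 to 0.824 and from 0.114 to 0.834. The cause of these changes was not tested. No paired analysis was possible because the replicate numbers mark the dye orientations of the same pair of RNA samples, which were averaged before any fit. PACAP and vehicle are already paired within each array's ratio, and the fits with time or genotype as a covariate block on the design, not on a replicate number. For dim probes, such as the other Birc3 probe, the signal over background limits the ratio.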
